A study of Mus musculus with 20 samples.

Results

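The glutathione, thioredoxin and NRF2 target genes are 41 listed mouse genes of the antioxidant and detoxification system, of 54532 genes in the deposited count table. All 41 symbols matched 1 Ensembl identifier each in that table, and the list was used whole. They hold 5 genes of glutathione synthesis, reduction and cystine uptake, 10 glutathione S-transferases, 5 peroxide- and superoxide-removing enzymes, and 10 thioredoxins, peroxiredoxins and their reductases. The rest are 5 enzymes of NADPH supply and the pentose phosphate pathway and 6 further targets of NRF2. Expression was measured by RNA sequencing of poly-A RNA from the hypothalamus of male C57BL/6J mice, 20 libraries in 5 groups, all of the same wild-type strain. Gly-Low is a diet designed to lower glycation, the attachment of reactive sugar products to proteins. The acute Gly-Low group (n = 4) was 4 months old and had eaten Gly-Low for 1 week, and the acute control group (n = 5) had the same age and 1 week of control diet. The old Gly-Low group (n = 3) was 25 months old after 5 months of Gly-Low, and the old control group (n = 4) was 25 months old after 5 months of control diet. The young control group (n = 4) was 3 months old with 1 week of control diet. Nothing in the labels ties libraries to individual mice, so p-values measure the spread between these samples, which may be technical.

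Glutathione is a small peptide that carries a reactive thiol, and cells use it to reduce peroxides, to tag reactive compounds for export and, through the glyoxalase pathway, to remove methylglyoxal, a main source of glycation. Thioredoxin and the peroxiredoxins form a parallel system, and both systems draw their reducing power from NADPH. The transcription factor NRF2 (encoded by Nfe2l2) is held in check by KEAP1 and, once released by electrophiles or oxidants, binds antioxidant response elements with small MAF proteins and raises many of these genes. In brain, much of the glutathione supply and of the NRF2 response is known from astrocytes.

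The libraries held 15848372 to 27399753 counts, and the 41 genes together took 0.548% to 1.09% of them. Libraries differed in their make-up in ways that touch these genes. Mitochondrial transcripts made up 17.0% to 23.3% of an acute Gly-Low library and 5.35% to 9.11% of an acute control library. The length slope of a library, how much its log2 CPM departs from the mean of the libraries with each doubling of transcript length, ran between −0.432 and −0.226 in acute Gly-Low and between 0.136 and 0.228 in acute control. In the ageing arm, old control 3 (15.8% mitochondrial, slope −0.198) stood apart from the other old controls, and young control 4 (5.73%, slope 0.222) from the other young controls. Of the 13 hypothalamic markers, including Agrp, Pomc, Hcrt and Avp, none was at 0 in any library. The 8 pituitary markers, among them Gh and Prl, reached sums of 61400, 32610 and 3718 CPM in acute controls 2, 5 and 3, and 1222 CPM or less in each of the other 17 libraries.

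Levels between genes are given as CPM (counts scaled to library size, with TMM factors) per kilobase of transcript. On that scale and averaged over the 20 libraries, Fth1, the iron-storing heavy chain of ferritin, stood highest at 1840. Sod1, the cytosolic superoxide dismutase, followed at 503, Gpx4, the peroxidase that reduces lipid peroxides, at 451 and Sqstm1, an autophagy adaptor, at 354. Gstm5 (312) and Prdx5 (276) came next. At the low end stood Nqo1, the quinone reductase often used as a readout of NRF2, at 11.0, the glutathione synthetase Gss at 10.3, the inducible heme oxygenase Hmox1 at 5.78 and the oxidative stress gene Osgin1 at 0.297. Osgin1 had no count in young control 2, so its values rest on few reads. The color map of all 41 genes by library shows the broad pattern.

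**Figure D1:**
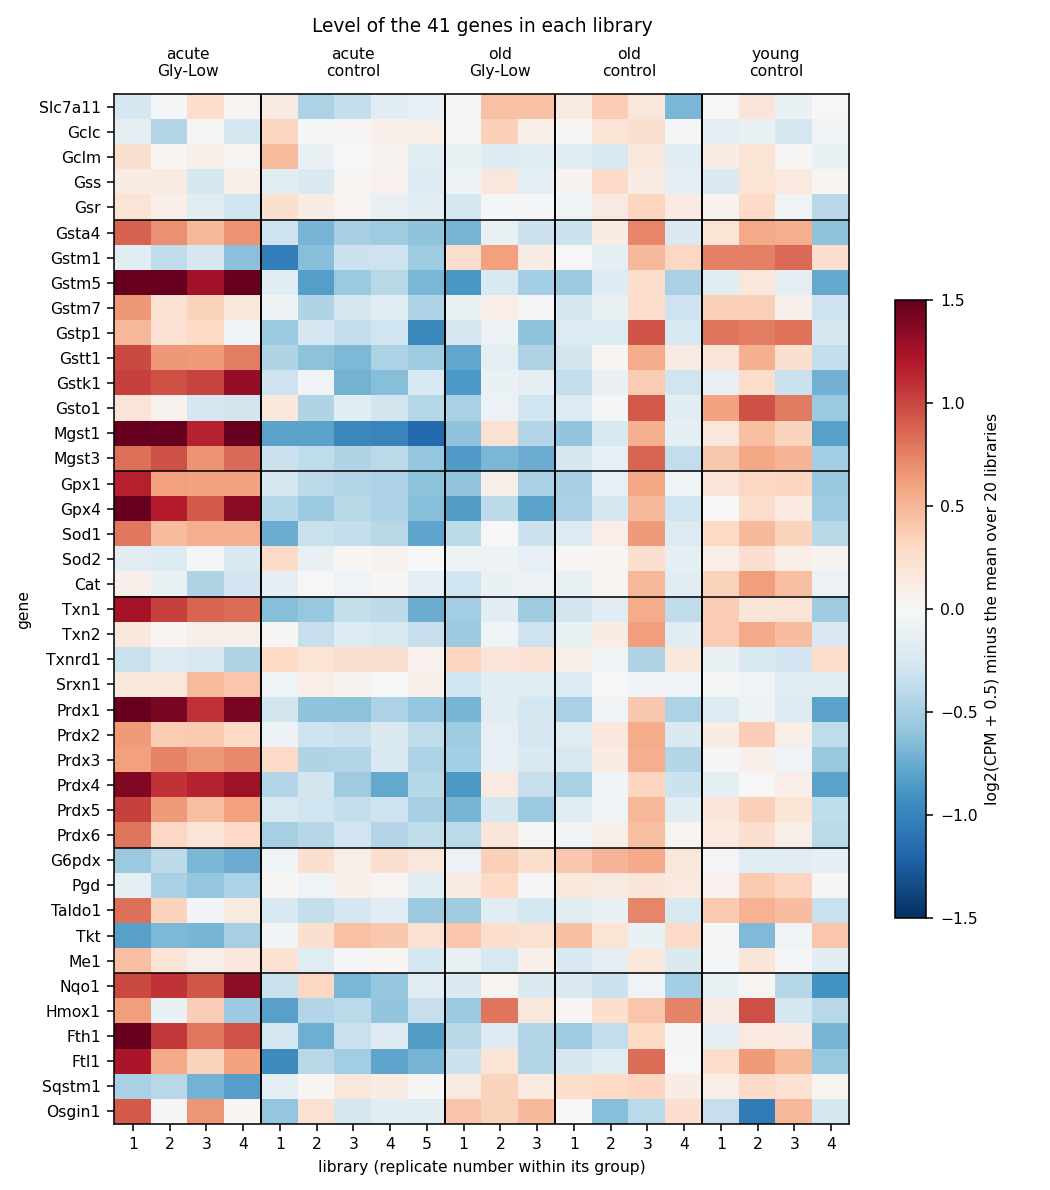
Each cell is log2(CPM + 0.5) of a gene (rows, grouped by role) in a library (columns, by group) minus its mean over the 20 libraries. The 4 acute Gly-Low columns are the reddest for most transferases, peroxidases and peroxiredoxins, and old control 3 is higher than the other old controls in most rows.

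After 1 week of Gly-Low, most of these genes stood higher than in the acute controls. By edgeR's quasi-likelihood test at an adjusted p of 0.05, 25 of the 41 genes rose and 5 fell, against a background of 27.8% higher and 30.5% lower (58.3% in all) among the 17161 genes tested. The median log2 difference of the 41 was 0.73, against −0.07 for all genes tested. For 24 of the 41, every acute Gly-Low library lay above every acute control, and for 4 every one lay below, against 21.1% and 21.9% of the 19061 genes kept in the fit on all libraries. The genes that rose were mostly transferases, peroxidases, peroxiredoxins and ferritins. Those that fell were 3 of the 5 enzymes of NADPH supply and the pentose phosphate pathway, with Txnrd1 and Sqstm1. None of the 5 genes of glutathione synthesis and reduction passed the test. In bulk tissue, fewer cells of a type and less RNA per cell cannot be told apart.

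Of the 10 glutathione S-transferases, which couple glutathione to reactive compounds, 8 rose and none fell, with a median log2 difference of 1.26. The largest change of the whole list was in Mgst1, a membrane-bound transferase (ENSMUSG00000008540, chr6:138140316-138156755, GRCm38), with 137, 127, 97.1 and 123 CPM in acute Gly-Low, against 24.5, 24.5, 21.9, 21.5 and 19.0 CPM in acute control. All 4 Gly-Low libraries were far above all 5 controls, a 5.49-fold difference (log2 2.46 ± 0.13 SE, adjusted p = 1.22e-07). Gstm5, a mu-class transferase, had 679, 596, 500 and 654 CPM in acute Gly-Low, against 187, 117, 141, 156 and 129 CPM in acute control. Its groups did not overlap either, and its log2 difference was 2.07 ± 0.16 (adjusted p = 2.55e-07). Gstt1, a theta-class transferase, rose by a log2 difference of 1.35 ± 0.13 (adjusted p = 7.31e-07) and the microsomal Mgst3 by 1.28 ± 0.11 (adjusted p = 4.92e-07). Gsta4, Gstk1, Gstm7 and Gstp1 also rose, by 0.67 to 1.49. Gstm1, the most studied mu-class enzyme, had 164, 141, 154 and 119 CPM in acute Gly-Low, against 89.0, 118, 147, 148 and 127 CPM in acute control. These overlapped, and its difference of 0.22 ± 0.16 did not pass (adjusted p = 0.247), nor did that of the omega-class Gsto1. The mu-class genes lie close together on chromosome 3 and are alike in sequence, so reads could have been split between them in the counting.

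Among the thioredoxins and peroxiredoxins, 9 of 10 rose and 1 fell. Prdx1, a cytosolic enzyme that reduces hydrogen peroxide with electrons from thioredoxin (ENSMUSG00000028691, chr4:116685544-116700822), had 988, 866, 691 and 867 CPM in acute Gly-Low, against 268, 212, 211, 234 and 217 CPM in acute control. Every Gly-Low library held more than 2 times the CPM of the highest control, and the fitted difference was 3.77-fold (log2 1.92 ± 0.15, adjusted p = 2.48e-07). Prdx4, the peroxiredoxin of the endoplasmic reticulum, had 102, 82.8, 86.7 and 94.0 CPM in acute Gly-Low, against 28.3, 31.9, 26.6, 22.5 and 28.7 CPM in acute control (log2 1.74 ± 0.13, adjusted p = 2.14e-07). Txn1, the cytosolic thioredoxin, had 183, 156, 141 and 137 CPM in acute Gly-Low, against 49.0, 51.6, 59.4, 58.0 and 45.3 CPM in acute control (log2 1.57 ± 0.13, adjusted p = 3.23e-07). Neither gene overlapped between the groups. Prdx6, which also reduces phospholipid peroxides, rose by 0.85 ± 0.14 (adjusted p = 0.000131), and Prdx2, Prdx3 and Prdx5 by 0.71 to 1.06. The rise of Srxn1, the sulfiredoxin that restores overoxidized peroxiredoxins and a well-known NRF2 target, was small at 0.29 ± 0.11 (adjusted p = 0.0385), with 125, 126, 156 and 150 CPM in acute Gly-Low, against 107, 120, 116, 113 and 118 CPM in acute control. Txnrd1, the reductase that recharges thioredoxin and another well-known target, fell. It had 56.7, 62.7, 61.1 and 52.2 CPM in acute Gly-Low, against 87.8, 82.4, 84.6, 84.8 and 74.5 CPM in acute control, with no overlap (log2 −0.49 ± 0.11, adjusted p = 0.00157).

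Of the peroxidases, dismutases and catalase, 3 of 5 rose. Gpx4 (ENSMUSG00000075706, chr10:80047166-80056439) had 1250, 848, 701 and 949 CPM in acute Gly-Low, against 275, 253, 277, 268 and 239 CPM in acute control. The groups were far apart, at a 3.62-fold difference (log2 1.85 ± 0.16, adjusted p = 5.09e-07). A processed copy of Gpx4 is in the count table, and reads could have been split with it. Gpx1, the main cytosolic glutathione peroxidase, rose by 1.23 ± 0.14 (adjusted p = 5.79e-06), with 207 to 306 CPM in acute Gly-Low and 88.7 to 113 CPM in acute control. Sod1 rose by 1.13 ± 0.14 (adjusted p = 7.83e-06), with 424 to 528 CPM in acute Gly-Low and 176 to 242 CPM in acute control. The mitochondrial Sod2 and the peroxisomal catalase Cat did not pass. Cat had 65.9, 57.6, 45.4 and 51.1 CPM in acute Gly-Low, against 56.4, 62.1, 59.5, 63.2 and 56.3 CPM in acute control, with a difference of −0.10 ± 0.13 (adjusted p = 0.535).

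None of the genes of glutathione synthesis and cystine uptake passed the test, and the values of several turned on how transcript length was treated. Gclc, the catalytic subunit of the first and rate-limiting enzyme, had 74.5, 60.5, 83.7 and 68.5 CPM in acute Gly-Low, against 103, 80.6, 83.5, 86.8 and 87.8 CPM in acute control. Only the third Gly-Low library lay inside the range of the controls, and the difference of −0.29 ± 0.13 missed the threshold (adjusted p = 0.0697). Gclm, the modifier subunit of the same enzyme, differed by 0.05 ± 0.14 (adjusted p = 0.789). Slc7a11, the transport subunit of the cystine-glutamate exchanger that brings in the limiting amino acid, differed by 0.21 ± 0.15 (adjusted p = 0.234), with 82.7 to 118 CPM in acute Gly-Low and 70.7 to 107 CPM in acute control. With an offset for the length trend of each library, described with transcript length, Slc7a11 differed by 0.93 ± 0.14 (adjusted p = 0.000121) and Gclm by 0.42 ± 0.15 (adjusted p = 0.0359). With the length slope of the libraries as a further term, Slc7a11 differed by 0.00095 ± 0.28 (adjusted p = 0.999) and Gclm by −0.30 ± 0.18 (adjusted p = 0.264). Slc7a11 also passed without acute control 1 (0.31 ± 0.13, adjusted p = 0.0459). Gclc passed as lower without acute Gly-Low 3 (−0.36 ± 0.14, adjusted p = 0.0373) and also with all 5 groups in the fit. Gss, which completes the peptide, and Gsr, which reduces its oxidized form, did not pass either.

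The enzymes of NADPH supply and the pentose phosphate pathway moved in both directions. G6pdx, the entry enzyme of the pentose phosphate pathway (chrX:74409483-74429194), had 40.5, 45.5, 37.0 and 35.5 CPM in acute Gly-Low, against 57.3, 71.5, 63.4, 71.3 and 67.4 CPM in acute control. It fell without overlap (log2 −0.72 ± 0.12, adjusted p = 0.000179). Tkt, the transketolase of the same pathway (chr14:30548359-30574720), had 112, 123, 121 and 139 CPM in acute Gly-Low, against 191, 233, 268, 260 and 231 CPM in acute control. This was the largest fall of the list, 1.89-fold lower (log2 −0.91 ± 0.13, adjusted p = 3.24e-05). Pgd, which makes further NADPH in the pathway, differed by −0.38 ± 0.12 (log2, adjusted p = 0.0168), a fall with overlapping groups. Taldo1, the transaldolase, rose by 0.68. The malic enzyme Me1, an NADPH source outside the pathway and a known NRF2 target, did not pass.

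Of the other NRF2 targets, 4 of 6 rose and 1 fell. Nqo1 (chr8:107388225-107403206) had 31.3, 33.5, 29.9 and 40.1 CPM in acute Gly-Low, against 12.2, 19.3, 9.42, 10.2 and 13.8 CPM in acute control. All Gly-Low libraries were above all controls, a 2.62-fold difference (log2 1.39 ± 0.20, adjusted p = 3.13e-05). Fth1 had 5180, 3160, 2630 and 2910 CPM in acute Gly-Low, against 1260, 912, 1200, 1320 and 848 CPM in acute control. The first Gly-Low library was the highest of all 20, and the difference was 1.66 ± 0.22 (adjusted p = 1.69e-05). Ftl1, the ferritin light chain, rose by 1.41 ± 0.18 (adjusted p = 1.04e-05), but 34.6% of its exon bases overlap other genes and it has 2 processed copies in the table, so its reads could have been shared. Hmox1 had 13.3, 7.87, 11.1 and 5.67 CPM in acute Gly-Low, against 4.61, 6.10, 6.27, 5.46 and 6.55 CPM in acute control. 1 Gly-Low library lay within the controls, and the rise of 0.73 ± 0.24 passed with an adjusted p of 0.0178. Sqstm1, an autophagy receptor that also binds KEAP1, had 502, 526, 429 and 397 CPM in acute Gly-Low, against 642, 719, 795, 760 and 713 CPM in acute control. It fell without overlap (log2 −0.63 ± 0.14, adjusted p = 0.00124). Of its exon bases 17.3% are shared with Mrnip on the other strand, and the libraries do not mark strand. Genes on the other strand also share 13.9% of the exon bases of Gstm5 and 13.6% of those of G6pdx. The shares are 19.1% for Prdx5, 15.4% for Gss and 11.5% for Prdx2, and Prdx6 has 1 processed copy in the table. Osgin1 did not pass.

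**Figure D2:**
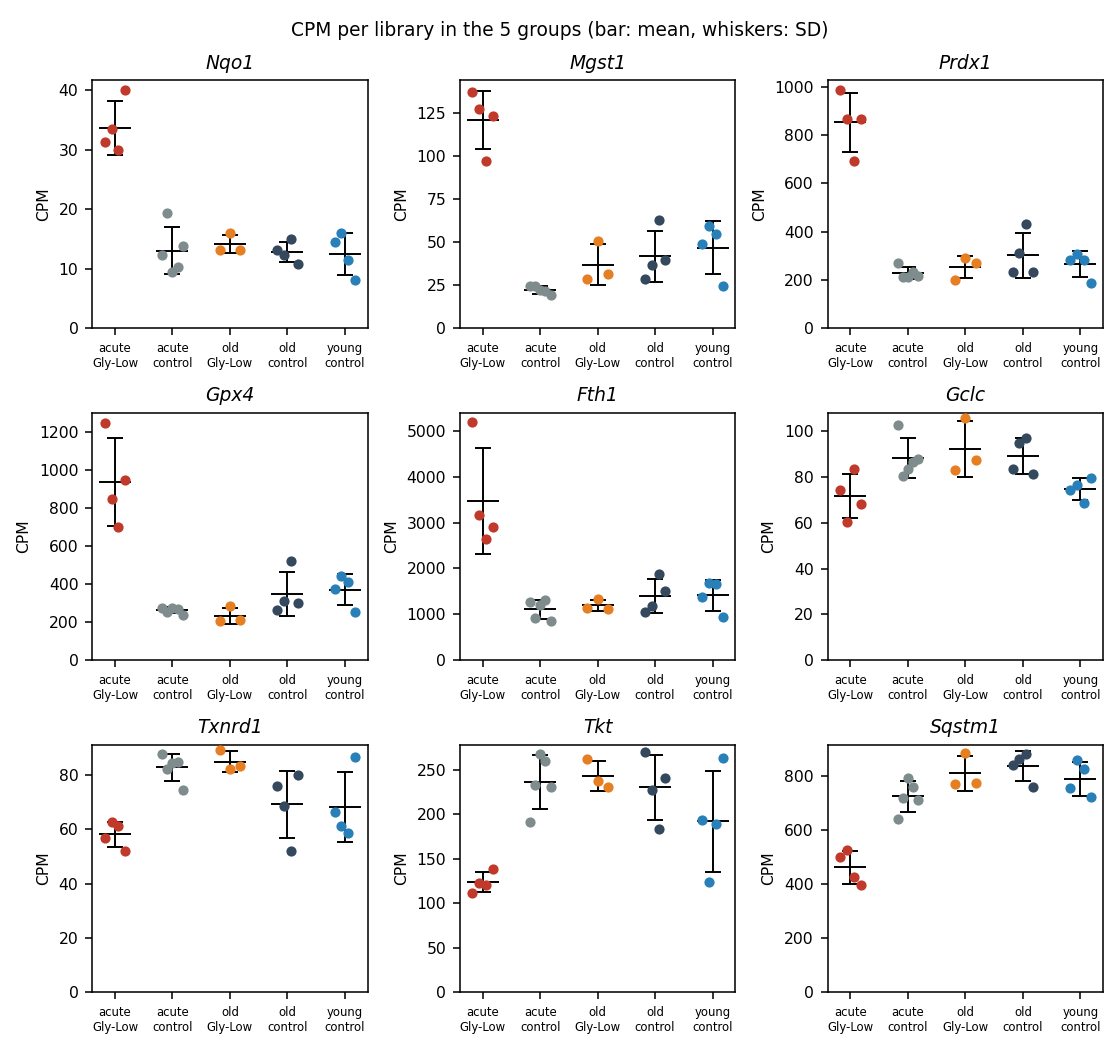
CPM of 9 genes in each library (points) with the group mean (bar) and SD (whiskers), by group. Nqo1, Mgst1, Prdx1, Gpx4 and Fth1 have their highest values in acute Gly-Low, Txnrd1, Tkt and Sqstm1 have low values there, and Gclc spans 60.5 to 106 CPM over the 20 libraries.

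Promoter sequences from RefSeq (GRCm38.p6), 250 bases before to 50 bases after a start site, were read for the 36 of 41 genes with an entry. Gclc, Gsta4, Gsr, Hmox1 and Prdx6 were not read. The core of the antioxidant response element, TGACNNNGC, was searched on both strands. It stood in at least 1 window of 11 of the 36 genes (30.6%), against 3781 of the 27025 genes with a window (14.0%). The 11 were Prdx1, Mgst1, Gstm5, Gstm7, Sod1, Srxn1, Txnrd1, G6pdx, Pgd, Gclm and Me1, of which 6 rose, 3 fell and 2 did not pass after 1 week of Gly-Low. A match describes these letters and not a bound site. The 4 windows printed here are those of the 3 genes with a match among the 4 of smallest p in the rise, and that of Me1, which holds the same 9 letters as Prdx1 and did not pass. Capitals mark the match, on the strand of the gene for Gstm5 and Me1 and as its reverse complement for Prdx1 and Mgst1.
Prdx1, chr4:116685349-116685648, plus strand: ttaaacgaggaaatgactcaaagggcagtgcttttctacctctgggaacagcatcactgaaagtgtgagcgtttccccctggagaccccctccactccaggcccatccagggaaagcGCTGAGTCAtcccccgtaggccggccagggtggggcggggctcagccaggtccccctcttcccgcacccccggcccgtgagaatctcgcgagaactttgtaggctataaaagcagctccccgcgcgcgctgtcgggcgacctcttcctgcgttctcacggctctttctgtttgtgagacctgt
Mgst1, chr6:138140277-138140576, plus strand: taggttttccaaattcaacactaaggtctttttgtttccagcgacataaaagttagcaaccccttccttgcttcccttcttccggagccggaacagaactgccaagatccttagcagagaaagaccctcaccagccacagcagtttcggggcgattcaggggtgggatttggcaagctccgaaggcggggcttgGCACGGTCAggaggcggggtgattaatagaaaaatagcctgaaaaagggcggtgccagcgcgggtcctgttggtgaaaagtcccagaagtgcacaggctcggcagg
Gstm5, chr3:107895604-107895903, plus strand: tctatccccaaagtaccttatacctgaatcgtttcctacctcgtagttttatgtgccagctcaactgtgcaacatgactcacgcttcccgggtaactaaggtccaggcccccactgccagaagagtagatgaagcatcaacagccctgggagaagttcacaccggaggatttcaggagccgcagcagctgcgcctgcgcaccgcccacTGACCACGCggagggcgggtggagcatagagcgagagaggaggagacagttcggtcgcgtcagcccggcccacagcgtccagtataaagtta
Me1, chr9:86695865-86696164, minus strand: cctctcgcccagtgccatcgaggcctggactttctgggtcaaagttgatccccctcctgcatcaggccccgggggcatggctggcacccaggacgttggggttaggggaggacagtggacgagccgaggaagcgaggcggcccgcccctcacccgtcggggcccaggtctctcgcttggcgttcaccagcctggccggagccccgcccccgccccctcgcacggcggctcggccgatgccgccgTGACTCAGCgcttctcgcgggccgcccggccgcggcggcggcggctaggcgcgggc
The leftmost base of the match lies at −133 in Prdx1, −56 in Mgst1, −42 in Gstm5 and −6 in Me1, counted from the start site. The letters TGACTCAGC of Prdx1 and Me1 also contain TGACTCA, the element of AP-1 factors, so the motifs of both factor families overlap there. TGACTCA also stands outside the marked match in the windows of Prdx1 and Gstm5. Its share among all windows was not counted. Prdx1 differed by 1.92 and Me1 by 0.28 ± 0.13 (log2) in acute Gly-Low.

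The acute pattern followed transcript length, and most of the listed genes have short transcripts. The genes tested were split by length into 5 bins of about equal size. In the shortest bin, 56 to 1334 bases, 61.6% of all genes were called higher and 4.17% lower, and 17 of the 19 listed genes in it rose. In the next bin, 36.0% of all genes were called higher and 14.3% lower, and 7 of 11 listed genes rose while Sqstm1 fell. In the 3 longer bins, 21.3%, 13.2% and 6.97% of all genes were called higher and 29%, 44.2% and 60.8% lower, and of 11 listed genes only Srxn1 rose while G6pdx, Pgd, Tkt and Txnrd1 fell. The median log2 difference in the shortest bin was 1.28 for the 19 listed genes and 1.03 for all genes. The acute groups did not overlap in length slope, so diet and slope cannot be told apart within this arm. With an offset for the length trend of each library, 18 listed genes were called higher and 9 lower, against 3979 and 4204 of all 17161 genes. The median log2 difference was then 0.26 for the 41 and −0.04 for all genes. Of the 25 genes 14 remained higher and of the 5 genes 4 remained lower, while Gstm7 and Gstp1 were called lower. Gclm, Slc7a11, Sod2 and Me1 were newly called higher, and Gstm1, Gsto1 and Cat newly called lower. When all 20 libraries were fitted with their length slope as a further term (the slope covariate), 6 of 25 and 3 of 5 remained, while Txn2, Taldo1, Gsto1, Gsr and Cat were called lower. In that fit 6 listed genes were called higher and 8 lower, against 2137 and 1670 of all 19061 genes. The median log2 difference was 0.001 for the 41 and 0.17 for all genes, so the list as a whole was no longer higher.

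The genes called in the same direction in the main fit and under both length adjustments were Mgst1, Gstm5, Prdx1, Gpx4, Prdx4 and Txn1, higher, and G6pdx, Pgd and Sqstm1, lower. Mgst1 differed by 1.37 ± 0.11 with the length offset (adjusted p = 1.04e-06) and by 1.11 ± 0.19 with the slope covariate (adjusted p = 0.000401). Prdx1 differed by 1.49 ± 0.13 (adjusted p = 1.92e-06) and 0.92 ± 0.16 (adjusted p = 0.000417). Gpx4 differed by 0.81 ± 0.13 (adjusted p = 0.00014) and 0.78 ± 0.17 (adjusted p = 0.00287). For G6pdx the values were −0.57 ± 0.12 (adjusted p = 0.00127) and −0.96 ± 0.18 (adjusted p = 0.00109). Nqo1 stood at 0.95 ± 0.20 (adjusted p = 0.00117) with the offset and at 0.71 ± 0.31, past no threshold, with the covariate (adjusted p = 0.108). Fth1 stood at 0.58 ± 0.18 (adjusted p = 0.0145) and 0.66 ± 0.26 (adjusted p = 0.0793). Txnrd1, at −0.10 ± 0.11 and 0.02 ± 0.16, Sod1, at −0.29 ± 0.13 and 0.14 ± 0.17, and Gpx1, at −0.04 ± 0.11 and 0.08 ± 0.18, were called under neither.

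**Figure D3:**
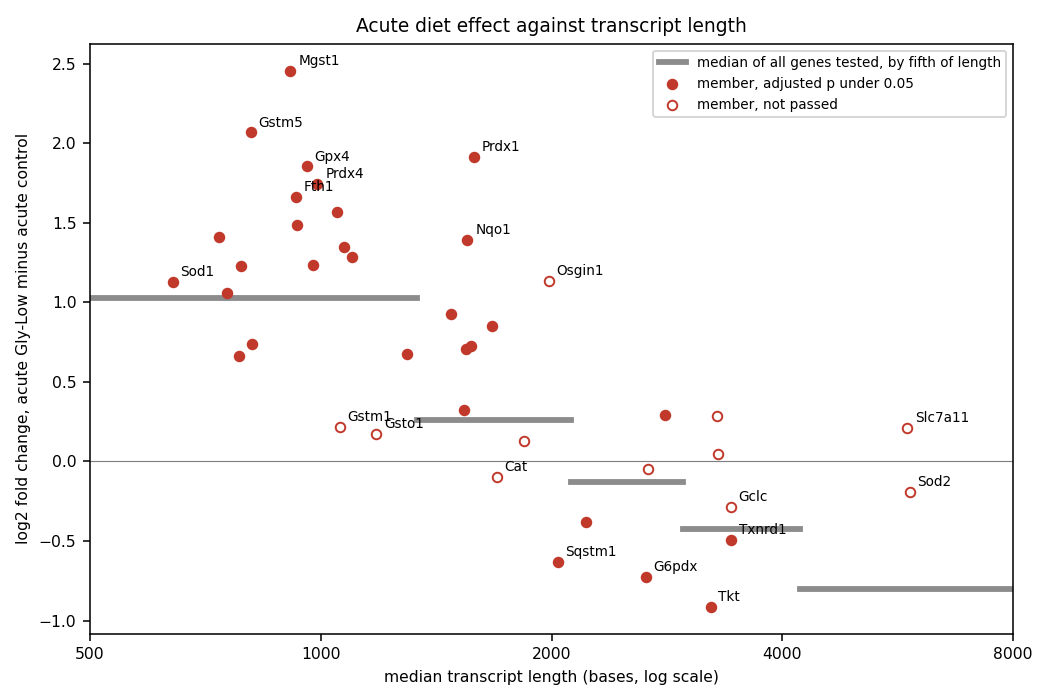
Log2 difference of acute Gly-Low minus acute control for the 41 genes against median transcript length (log axis), filled where the adjusted p is under 0.05, with grey bars for the median of all genes tested in each of the 5 length bins. Mgst1, Gstm5, Gpx4, Prdx4 and Prdx1 lie above the bar of their bin, and Gstm1 and Gsto1 lie below it.

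Markers of several other cell types also moved with the acute groups. Among all 19061 genes kept in the fit on all libraries, 21.1% were higher and 21.9% lower without overlap. The 5 border macrophage markers, all of them higher in every acute Gly-Low library, summed to 27.9 to 42.1 CPM in acute Gly-Low and 8.11 to 12.4 CPM in acute control. Of the 5 erythrocyte markers 4 were higher without overlap, with sums of 556 to 1510 CPM in acute Gly-Low and 72.7 to 322 CPM in acute control. Of the 7 markers of meninges and fibroblasts 3 were higher without overlap, with sums of 126 to 261 CPM in acute Gly-Low and 47.4 to 97.6 CPM in acute control. The 6 astrocyte markers summed to 2060 to 2700 CPM in acute Gly-Low, against 2800 to 3630 CPM in acute control. Within that list 1 marker was higher and 2 were lower without overlap, and Aqp4 averaged 346 CPM in acute Gly-Low and 228 CPM in acute control. The 6 neuron markers summed to 2260 to 2630 CPM in acute Gly-Low, against 2720 to 3410 CPM in acute control, with 2 of them lower and none higher without overlap. Syt1 averaged 256 CPM in acute Gly-Low and 740 CPM in acute control, while Snap25 averaged 1170 CPM in acute Gly-Low and 1130 CPM in acute control. The 5 ependyma and tanycyte markers summed to 61.1 to 117 CPM in acute Gly-Low, against 26 to 35.4 CPM in acute control, with 2 higher without overlap. The 6 oligodendrocyte markers summed to 5170 to 7140 CPM in acute Gly-Low, against 2760 to 5330 CPM in acute control, with 3 higher and 1 lower without overlap. No marker of these 7 lists was at 0 in any library. The sums of 3 further lists overlapped between acute Gly-Low and acute control. They were 279 to 315 against 256 to 305 CPM for microglia (2 markers higher and 2 lower without overlap) and 80.2 to 106 against 96.5 to 163 CPM for endothelium (1 and 2). For choroid plexus they were 13 to 31.9 against 10.7 to 23.4 CPM (1 and 1). The sums of the 13 hypothalamic markers also overlapped, at 1720 to 2880 CPM in acute Gly-Low and 607 to 4130 CPM in acute control. Within that list 5 markers were higher and 2 lower without overlap. The part of all these cells in the result was not tested. Without acute controls 2, 3 and 5, those with pituitary transcripts, 20 of the 25 genes remained higher and all 5 remained lower, while Hmox1, Srxn1, Gstm7, Txn2 and Taldo1 no longer passed.

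The other genes of the pathway moved in both directions in acute Gly-Low, with 27.8% higher and 30.5% lower among all genes tested as the background. Their values come from the main fit only, without an adjustment for transcript length. Of 18 other glutathione S-transferase and prostaglandin-synthase genes 13 were tested, 8 rose and none fell; those of smallest p were Gstz1 (0.89 ± 0.13, adjusted p = 4.81e-05), an enzyme of tyrosine breakdown, Ptgds (1.98 ± 0.34, adjusted p = 0.000192), the brain prostaglandin D synthase, and the mu-class Gstm2 (1.81 ± 0.32, adjusted p = 0.0002). Of 23 other glutathione enzymes and transporters 9 rose and 7 fell. Ggct, which degrades gamma-glutamyl peptides, rose by 1.21 ± 0.14 (adjusted p = 4.5e-06), and Abcc1, an exporter of glutathione conjugates, fell by 1.77 ± 0.18 (adjusted p = 1.72e-06), as did the cysteine and glutamate carrier Slc1a1 by 1.35 ± 0.18 (adjusted p = 1.57e-05). Of 15 other thioredoxin-like and methionine sulfoxide reducing enzymes 9 rose and 2 fell, with Txndc17 at 1.65 ± 0.16 (adjusted p = 1.33e-06) and the sestrin Sesn3 at −1.06 ± 0.15 (adjusted p = 3.4e-05). Of 28 other detoxification and iron genes 17 rose and 3 fell, with the biliverdin reductase Blvra at 1.26 ± 0.13 (adjusted p = 1.4e-06) and the metallothionein Mt1 at 1.40 ± 0.18 (adjusted p = 1.44e-05), while Slc40a1, the iron exporter ferroportin, stood at −0.83 ± 0.23 (adjusted p = 0.00569). Of the 10 regulators of NRF2, 1 rose and 4 fell. The rise was in Rbx1, at 1.04 ± 0.14 (adjusted p = 2.28e-05). Those of smallest p in the fall were Btrc, at −1.05 ± 0.12 (adjusted p = 4.71e-06), and Nfe2l1, at −0.89 ± 0.21 (adjusted p = 0.00248). Bach1, a repressor at the same elements, followed at −0.49 ± 0.13 (adjusted p = 0.00531). Nfe2l2 itself, named here after its values were seen, differed by 0.13 ± 0.15 (adjusted p = 0.465), and Keap1, likewise, by −0.35 ± 0.17 (adjusted p = 0.0891).

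After 5 months of Gly-Low in old mice no listed gene passed the test. The background was 0% of the 18281 genes tested by edgeR, 433 genes had an unadjusted p under 0.05, and DESeq2 called 2 genes higher and 1 lower, none of them listed. Of the 41 genes 2 had an unadjusted p under 0.05 by edgeR and 3 by DESeq2, and 9 had a positive difference, with a median of −0.21 against 0.03 for all genes. In the shortest length bin, 54 to 1289.5 bases, the median was −0.33 for the 18 listed genes and −0.27 for all genes. With the length offset 17 of the 41 were positive, with a median of −0.06 against 0.02 for all genes. With the slope covariate 20 were positive, with a median of −0.01 against −0.03 for all genes. Mgst3 had 25.9, 29.1 and 28.0 CPM in old Gly-Low, against 39.6, 43.3, 87.1 and 36.5 CPM in old control. Its groups did not overlap, and old control 3 held the highest value; the difference was −0.89 ± 0.35 (adjusted p = 0.953). Prdx5, a mitochondrial and peroxisomal peroxiredoxin, had 122, 165 and 134 CPM in old Gly-Low, against 177, 189, 279 and 177 CPM in old control, again without overlap (−0.53 ± 0.23, adjusted p = 0.953). Txnrd1 lay in the other direction, with 89.3, 82.1 and 83.4 CPM in old Gly-Low, against 76.1, 68.6, 52.2 and 80.1 CPM in old control (0.32 ± 0.17, adjusted p = 0.953). In all, 2 listed genes were higher and 2 lower without overlap, against 3.09% and 3.47% of all genes.

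The classical targets did not pass the test in the old arm. Nqo1 had 13.2, 15.9 and 13.2 CPM in old Gly-Low, against 13.2, 12.3, 14.9 and 10.7 CPM in old control (0.16 ± 0.25, adjusted p = 0.953). Gpx4 had 208, 283 and 213 CPM in old Gly-Low, against 265, 309, 522 and 302 CPM in old control (−0.56 ± 0.27, adjusted p = 0.953), and Prdx1 had 199, 289 and 270 CPM in old Gly-Low, against 231, 312, 430 and 233 CPM in old control (−0.24 ± 0.27, adjusted p = 0.953). In both genes old control 3 was the highest of its group. That library was the highest old control for 34 of the 41 genes, old Gly-Low 2 was the highest old Gly-Low library for 32, and old Gly-Low 1 the lowest for 28. Without old control 3, the median of the 41 genes was −0.04, 16 were positive and none had an unadjusted p under 0.05. With the replicate number as a block, 13 of the 41 had an unadjusted p under 0.05, as did 3215 of all 18281 genes. None passed after adjustment, the smallest adjusted p among the genes named here being 0.271.

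Between old and young controls no listed gene passed either. The background was 6 genes higher and 0 lower of 18281 (0.0328% in all), and 1663 genes had an unadjusted p under 0.05. Of the 41 genes 2 had an unadjusted p under 0.05, and the median difference was −0.06. Without old control 3 that count was 8 and the median −0.23, and without young control 4 they were 5 and −0.17. No listed gene passed the threshold in either. Among all genes, 2501 of 18125 had an unadjusted p under 0.05 without old control 3, and 3535 of 18053 without young control 4. G6pdx had 79.1, 85.5, 88.8 and 67.3 CPM in old control, against 58.7, 52.6, 53.4 and 54.4 CPM in young control. All old controls were above all young ones, with a log2 difference of 0.53 ± 0.15 (adjusted p = 0.257). DESeq2 called this gene higher with age (0.56 ± 0.15, adjusted p = 0.0115), and so did edgeR with the slope covariate (0.59 ± 0.12, adjusted p = 0.00902), which also called Prdx1 (0.39 ± 0.10, adjusted p = 0.0445). Both settings called more of all genes than the main fit. DESeq2 called 211 higher and 177 lower of 18281, and the slope covariate 214 higher and 199 lower of 19061. Gstm1 had 185, 167, 257 and 227 CPM in old control, against 311, 310, 332 and 217 CPM in young control (−0.51 ± 0.20, adjusted p = 0.45). Young control 4 was the lowest of its group for 34 of the 41 genes, Gstm1 among them, and young control 2 the highest for 30. Gclc had 83.6, 94.8, 97.3 and 81.4 CPM in old control, against 74.5, 76.7, 68.6 and 79.7 CPM in young control, also without overlap (0.24 ± 0.13, adjusted p = 0.643). G6pdx and Gclc, 2 of the 41, were higher in every old control than in any young one, and none was lower in every one, against 2.75% and 2.89% of all genes. The old controls enter both this comparison and the old diet one. Marker sums of 4 cell types were higher in every old control than in any young control. They were 427 to 538 against 273 to 350 CPM for microglia and 3360 to 4100 against 2490 to 3020 CPM for astrocytes. For oligodendrocytes they were 3820 to 5090 against 2690 to 3110 CPM, and for erythrocytes 864 to 1800 against 63.5 to 373 CPM. The sums of the other lists overlapped. The part of these cells in the age differences was not tested. For the other classical targets the age differences lay between −0.28 (Cat, adjusted p = 0.742) and 0.18 (Prdx1, adjusted p = 0.864).

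**Figure D4:**
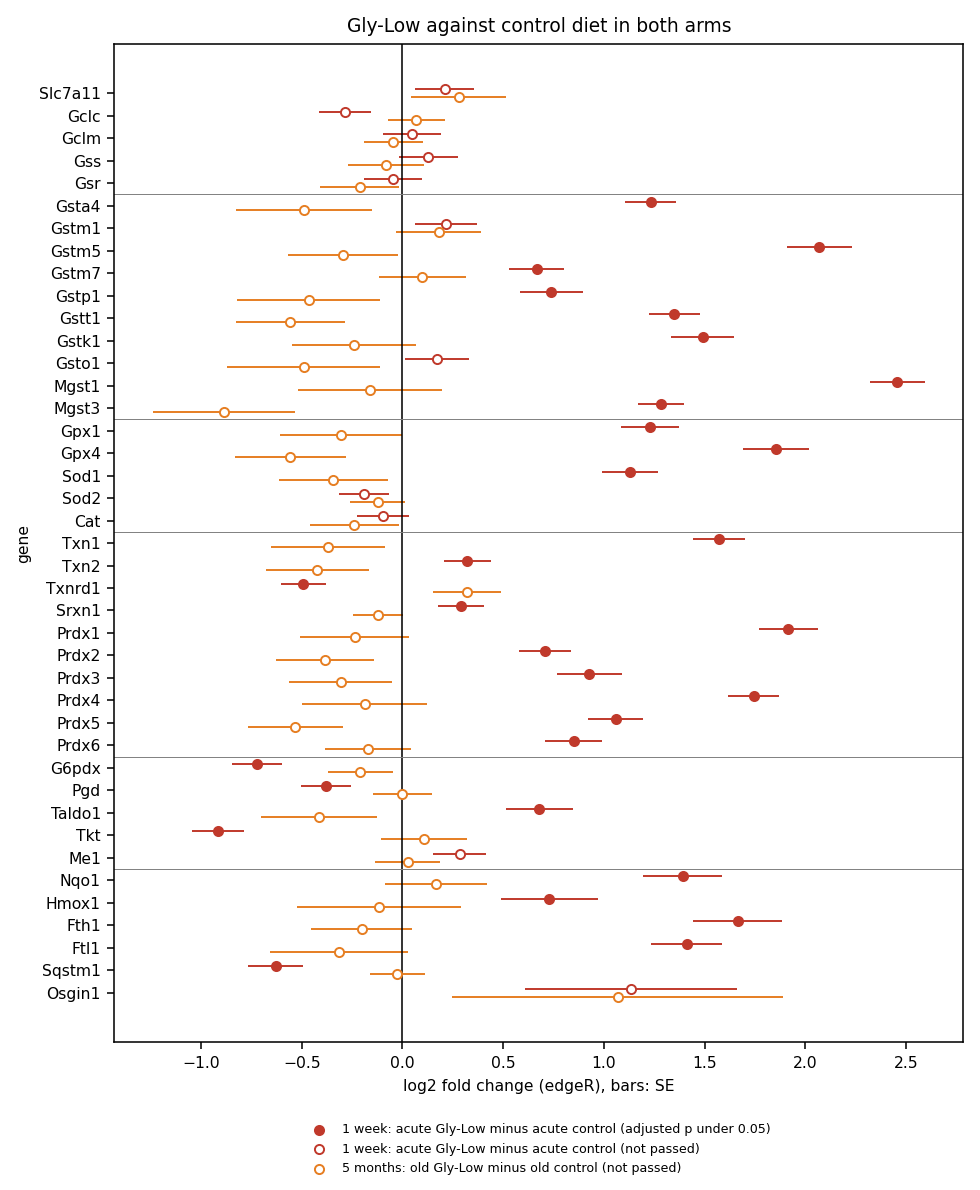
Log2 difference with its SE (bars) of each gene for Gly-Low against control diet, after 1 week (red, acute Gly-Low minus acute control) and after 5 months (orange, old Gly-Low minus old control); filled points passed an adjusted p of 0.05. None of the orange points passed, and most red points of the transferases, peroxidases and peroxiredoxins lie to the right of the orange ones.

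The diet effects of the arms were compared directly, as the old effect minus the acute effect, in a fit on all 20 libraries. For 23 of the 41 genes the old effect was lower than the acute one and for 4 it was higher, against 19.2% and 16.8% (36% in all) of the 19061 genes tested. The median difference was −1.03 for the 41 and 0.10 for all genes. In the shortest length bin, 54 to 1249 bases, it was −1.73 for the 18 listed genes and −1.26 for all genes. Of all genes in that bin 44.5% were called lower. With the length offset the median was −0.40 for the 41 and 0.10 for all genes. With the slope covariate it was 0.04 for the 41 and −0.19 for all genes. In the main fit, the largest difference was in Mgst1, with −0.16 ± 0.36 in the old arm and 2.46 ± 0.13 in the acute arm (difference −2.62 ± 0.38, adjusted p = 6.73e-05). Gpx4 followed, with −0.56 ± 0.27 in the old arm and 1.85 ± 0.16 in the acute arm (difference −2.41 ± 0.31, adjusted p = 3.39e-05). For Gstm5 the difference was −2.37 ± 0.31 (adjusted p = 3.56e-05), for Prdx1 −2.16 ± 0.29 (adjusted p = 4.22e-05) and for Nqo1 −1.23 ± 0.33 (adjusted p = 0.00639). The 4 genes in the other direction were Tkt (1.01 ± 0.25, adjusted p = 0.00425), Txnrd1 (0.80 ± 0.20, adjusted p = 0.00409), Sqstm1 (0.60 ± 0.17, adjusted p = 0.00893) and G6pdx (0.51 ± 0.18, adjusted p = 0.0343). Of the 27 genes, 13 remained with the length offset (11 lower, 2 higher) and 6 with the slope covariate, which were Mgst1, Gpx4, Gstm5, Prdx1 and Gstt1, lower, and Sqstm1, higher. The offset also called Gstm1 and Gstm7 higher and Sod2 and Me1 lower, and the slope covariate called Gsto1, Cat and Pgd higher. Over all 19061 genes, the offset called 2400 lower and 2074 higher, and the slope covariate 924 lower and 794 higher. Without the 3 acute controls with pituitary transcripts, young control 2 and old control 3, 18 lower and 2 higher remained, the calls of Sqstm1 and G6pdx being lost. That refit called 2293 genes lower and 1908 higher of all 19396. The arms differ both in age and in time on the diet, which cannot be told apart.

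**Figure D5:**
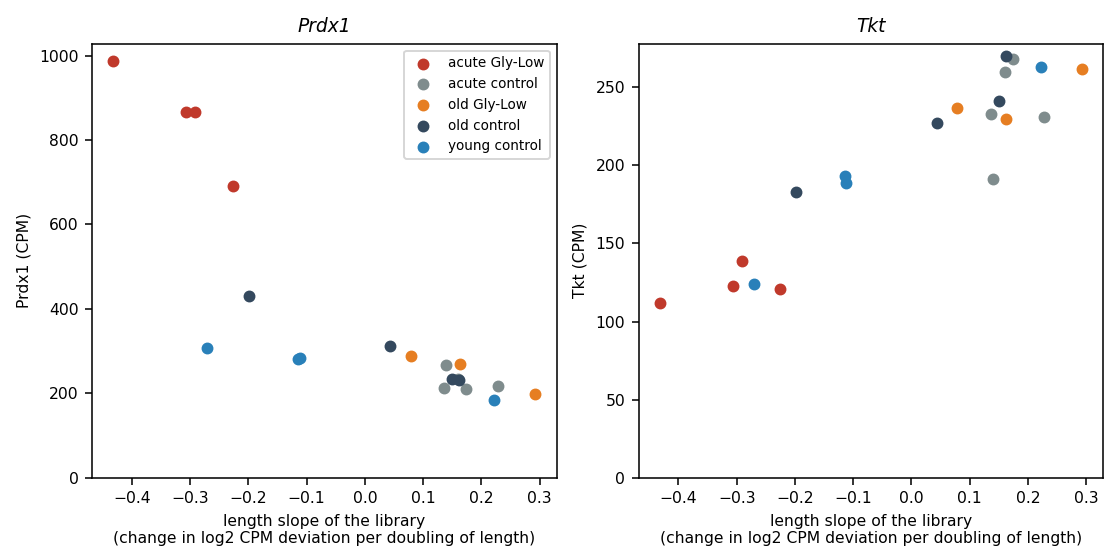
CPM of Prdx1 (left) and Tkt (right) against the length slope of each of the 20 libraries, colored by group. Old control 3 and young control 2, with slopes of −0.198 and −0.271, have 430 and 307 CPM of Prdx1, below the 691 to 988 CPM of the 4 acute Gly-Low libraries, and have 183 and 124 CPM of Tkt, of which the second lies inside the 112 to 139 CPM of acute Gly-Low.

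The young control-diet groups also differed from each other, although both ate the control diet for 1 week. Against the young controls, 7 of the 41 genes were lower in acute control and none was higher, with 4.37% and 0.923% of 19061 genes (5.29% in all) as the background. Gstm1 differed most, with 89.0, 118, 147, 148 and 127 CPM in acute control, against 311, 310, 332 and 217 CPM in young control (−1.22 ± 0.17, adjusted p = 0.0116). The groups did not overlap. Without overlap, 2 listed genes (Gstm1 and Gstt1) were lower and 1 (Gclc) was higher, against 3.58% and 2.11% of all genes. Mgst1 (−1.06 ± 0.24, adjusted p = 0.022), Gstp1 (−1.06 ± 0.25, adjusted p = 0.0241), Ftl1 (−0.94 ± 0.25, adjusted p = 0.0382), Gsta4 (−0.78 ± 0.22, adjusted p = 0.0477), Gstt1 (−0.74 ± 0.18, adjusted p = 0.0259) and Sod1 (−0.73 ± 0.19, adjusted p = 0.0319) were the others. All 7 are among the genes of short transcripts, where 15.9% of all genes were called lower. No listed gene was called without acute controls 2, 3 and 5, without young control 2, without young control 3, with the slope covariate, under the replicate block, or with only these groups in the fit. With the length offset 1 was called, Gstm1 (−0.78 ± 0.14, adjusted p = 0.0212), while 19 were called lower and 2 higher without young control 4. In that last refit the calls rose over all genes too, to 2143 lower and 1814 higher of 18969. The labels give these groups the same diet and time on it, and ages of 4 months in acute control and 3 months in young control.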

How the data were processed

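Hypothalamic RNA of 20 libraries in 5 groups was sequenced from non-directional poly-A libraries, per the labels' protocols. The authors deposited unnormalized counts, a whole number of reads for each gene and library. The submitters' processing notes list, without roles, featureCounts 1.5.0-p3, HISAT2 2.0.5, DESeq2 1.20.0 and the build GRCm38. Annotation release and strand setting: not given in the sources used here. Counts were used as deposited. Symbols, positions and lengths come from GENCODE M21 (GRCm38), which matched 54495 of 54532 identifiers; no library had over 0.0198% of its counts in the remaining 37. A gene's length is the median over its transcripts. No 2 libraries were identical, and the highest correlation of log2 CPM within a group was 0.983.

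filterByExpr removed low genes, TMM scaled the libraries, and edgeR 4.0.16 (R 4.3.3) tested each comparison by its quasi-likelihood F test, with Benjamini-Hochberg adjustment over all genes tested and a threshold of 0.05. The acute diet was fitted on 9 libraries, age and old diet on the 11 of the ageing arm, and the other 2 comparisons on all 20. Errors of log2 differences are standard errors; overlap of groups was read from CPM. Where no tool is named, an adjusted p is edgeR's.

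Alternatives were DESeq2 1.42.0, edgeR with DESeq2's size factors, the unfiltered table, genes of at least CPM 1 in 3 libraries, other samples in the fit, a block for the replicate number, a length offset (each library's trend over 40 bins of length), the slope covariate and leaving out libraries. The definition of the length offset was settled after results with an earlier form had been seen. Leaving out libraries for the difference between arms and between control groups was chosen after seeing the data.

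The members, lists, tests and alternatives were chosen with earlier results of these data known. The rule for named genes gives full statistics for at most 8 genes of smallest p in each direction past the threshold, or the 3 of smallest p where fewer than 3 pass, and for 16 core genes; of the other pathway lists it names up to 3 in each direction. Same-numbered old Gly-Low and old control libraries, by their titles, had deviations from the group mean that correlated at 0.417, 0.272 and 0.253, so the block is given beside that result, although old Gly-Low columns are numbered otherwise than the titles and 0 of 3 correlated best with their own number.

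On simulated counts with known changes, the acute diet fit recovered 53% of genes changed 2-fold and 84% changed 4-fold over 17161 genes, with 6.8% false calls. The values were 7% and 52% for age, 6% and 55% for the old diet (18281 genes each), 4% and 53% for the difference between arms and 29% and 78% between control groups (19061 genes each). False calls there were 7.81%, 7.58%, 1.72% and 5.31%, in the same order. The simulation changed a small part of the genes, as many up as down. The acute diet fit on the data called 58.3% of genes, so the simulated shares need not carry over to it.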

Additional observations from a re-analysis of the deposited data

Results flagged for a closer look

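A single library stood apart from the rest of its group in 11 of the 164 combinations of gene and group with 4 or 5 libraries; chance alone gives about 1 in 20. In old control 3, the library with 15.8% mitochondrial counts, the level was 87.0 CPM for Gclm, 84.2 CPM for Gsto1, 276 CPM for Gstp1, 87.1 CPM for Mgst3, 279 CPM for Prdx5 and 195 CPM for Taldo1, each the highest old control. In acute Gly-Low 1, with 23.3% mitochondrial counts, it was 306 CPM for Gpx1 and 576 CPM for Prdx6. Gss stood at 15.6 CPM in acute Gly-Low 3, Prdx3 at 120 CPM in acute control 1 and Gstp1 at 120 CPM in young control 4. The part of these libraries' make-up in the values was not tested.

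The diet effect differed between arms in 27 genes, as the old effect minus the acute effect on the log2 scale by edgeR. It was lower in the old arm in 23 of them, at −2.62 for Mgst1, −2.41 for Gpx4, −2.37 for Gstm5, −2.17 for Mgst3, −2.16 for Prdx1, −1.94 for Prdx4, −1.94 for Txn1, −1.91 for Gstt1, −1.87 for Fth1, −1.74 for Gstk1, −1.72 for Gsta4, −1.72 for Ftl1, −1.59 for Prdx5, −1.54 for Gpx1, −1.47 for Sod1, −1.24 for Prdx3, −1.23 for Nqo1, −1.20 for Gstp1, −1.09 for Taldo1, −1.09 for Prdx2, −1.03 for Prdx6, −0.75 for Txn2, −0.42 for Srxn1. It was higher in 4, at 1.01 for Tkt, 0.80 for Txnrd1, 0.60 for Sqstm1, 0.51 for G6pdx.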

How the results depend on the processing

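Numbers shared by title were tested as a block. For the acute diet 22 listed genes remained higher and 5 lower, with same-numbered correlations of −0.042 to 0.0016 and 0 of 4 best with their own number. For the control groups the correlations were −0.042 to 0.0052, again with 0 of 4. For age they were mixed, at −0.05, 0.269, 0.0949 and 0.6, with 2 of 4 best with their own number; since not every pair was above 0.1 the block is not used as a pairing there, and under it 7 genes and 0 listed genes were called higher. The block changed no call of the old diet. Under the slope covariate, the values for the acute diet were 2137 genes higher, 1670 genes lower, 6 listed genes higher, 8 listed genes lower, 0.018 for Txnrd1, −0.29 for Hmox1, −0.30 for Gstm1, −0.30 for Gclm. Under the slope covariate, the values for age were 214 genes higher, 199 genes lower, 2 listed genes higher, 0.12 for Sod1, 0.13 for Gpx4, 0.20 for Ftl1, 0.16 for Gpx1, 0.21 for Fth1, −0.10 for Txnrd1. Under the slope covariate, the values for the old diet were 0.020 for Gpx1, 0.091 for Ftl1, 0.054 for Prdx1, 0.070 for Fth1, 0.020 for Prdx6, 0.042 for Gclm, 0.057 for Hmox1. Under the slope covariate, the values for the difference between arms were 794 genes higher, 924 genes lower, 5 listed genes lower, 0.036 for Ftl1, 0.35 for Hmox1, 0.89 for Cat, 0.35 for Gclm, 0.59 for Gstm1. Under the slope covariate, the values for the control groups were 0 genes higher, 0 genes lower, 0 listed genes lower, 0.038 for Gpx1, 0.034 for Gpx4, 0.15 for Fth1, 0.29 for Prdx1. With the length offset, the values for the acute diet were 9 listed genes lower, −0.036 for Gpx1, −0.29 for Sod1, 0.11 for Gclc, −0.70 for Gstm1. With the length offset, the values for age were 24 genes higher, 5 genes lower, 0.17 for Sod1, 0.062 for Gpx4, 0.12 for Ftl1, 0.10 for Gpx1, 0.16 for Fth1, −0.11 for Slc7a11, −0.039 for Txnrd1. With the length offset, the values for the old diet were 0.043 for Sod1, 0.022 for Gpx1, 0.057 for Ftl1, 0.060 for Fth1, −0.063 for Gclc. With the length offset, the values for the difference between arms were 2074 genes higher, 2400 genes lower, 13 listed genes lower, 0.35 for Sod1, −0.11 for Gclc, 0.31 for Cat, −0.93 for Slc7a11, 1.11 for Gstm1. With the length offset, the values for the control groups were 56 genes higher, 151 genes lower, 1 listed genes lower, 0.049 for Sod1, 0.070 for Gpx1, 0.0079 for Gpx4, 0.16 for Fth1, −0.18 for Gclm. Without acute control 2 and acute control 3 and acute control 5, the values for the acute diet were −0.20 for Gclm. Without acute control 2 and acute control 3 and acute control 5, the values for the control groups were 0 genes higher, 0 genes lower, 0 listed genes lower, −0.15 for Nqo1. With DESeq2, the values for age were 211 genes higher, 177 genes lower, 1 listed genes higher. With DESeq2, the values for the old diet were 2 genes higher, 1 genes lower. With DESeq2, the values for the control groups were 491 genes higher. With no filter on low counts, the values for age were 11 genes higher. With no filter on low counts, the values for the control groups were 85 genes higher. With all 5 groups in the fit, the values for age were 70 genes higher, 50 genes lower. With only the compared groups in the fit, the values for age were 0 genes higher. With only the compared groups in the fit, the values for the control groups were 0 genes higher, 3 genes lower, 0 listed genes lower. Without young control 2 and old control 3, the values for age were 2 genes higher. Without young control 2 and old control 3, the values for the old diet were 0.0051 for Ftl1, 0.055 for Gclm. Under the replicate block, the values for age were −0.045 for Slc7a11. Under the replicate block, the values for the control groups were 0 genes higher, 0 genes lower, 0 listed genes lower. Without acute control 2 and acute control 3 and acute control 5 and young control 2 and old control 3, the values for the difference between arms were 1908 genes higher, 2293 genes lower, 2 listed genes higher, 0.036 for Cat, 0.22 for Gclm. Leaving out each library in turn gave, for the acute diet, −0.011 to 0.18 for Gclm. Leaving out each library in turn gave, for age, 0 to 6 genes higher, −0.061 to 0.29 for Prdx1, −0.048 to 0.16 for Prdx6, −0.015 to 0.56 for Hmox1, −0.38 to 0.014 for Gpx4, −0.45 to 0.028 for Ftl1, −0.36 to 0.042 for Gpx1, −0.23 to 0.080 for Fth1, −0.025 to 0.054 for Srxn1, −0.15 to 0.15 for Nqo1, −0.12 to 0.20 for Slc7a11, −0.063 to 0.13 for Txnrd1. Leaving out each library in turn gave, for the old diet, −0.54 to 0.020 for Ftl1, −0.36 to 0.00042 for Prdx1, −0.045 to 0.13 for Gclc, −0.090 to 0.068 for Gclm, −0.53 to 0.15 for Hmox1. Leaving out each library in turn gave, for the difference between arms, −0.23 to 0.024 for Cat, −0.12 to 0.19 for Slc7a11, −0.19 to 0.072 for Gstm1. Leaving out each library in turn gave, for the control groups, 0 to 1814 genes higher, 0 to 2143 genes lower, 0 to 2 listed genes higher, 0 to 19 listed genes lower, −0.12 to 0.20 for Nqo1, −0.12 to 0.065 for Gclm. The cause of these differences was not tested. At these sample numbers the ageing arm recovered few simulated 2-fold changes, so a missed threshold there does not show equal levels.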
